A study of Mus musculus with 12 samples.

Results

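The proteasome is the protease complex that degrades proteins tagged with ubiquitin, and its subunit genes, with the exchangeable subunits of the immunoproteasome, were measured on 12 whole-transcript arrays of mouse macrophages. The 41 genes were taken by name: a gene counted as measured if a row of the value table carried its symbol and no other, and of several such rows the brightest on average was used. Of the 41, 40 had such a row and all 40 passed the filter on dim rows. Psma4, a subunit of the outer ring, was not measured, since its rows carry 2 symbols. They are 40 of 14079 genes tested. Psma5 and Psmc2 had 2 rows each. Psmd1 and Psme2 each had 1 further row that carries several symbols, which was not used.

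The cells were macrophages grown from bone marrow in medium conditioned by L929 fibroblasts, a source of macrophage growth factor. The mutant mice, Rasgef1b_fl/fl_vav-icre, carry a floxed Rasgef1b gene that a Vav-driven Cre recombinase removes in blood-forming cells. Rasgef1b encodes an exchange factor for Ras-family GTPases. The 4 groups of 3 arrays each were knockout cells with R848 for 4 h, knockout cells with saline, wild-type cells with R848 for 4 h and wild-type cells with saline. R848 is a small molecule that activates TLR7, a receptor that senses RNA in endosomes. No time is given for saline, and no group carries Cre alone, so that Cre and the loss of Rasgef1b cannot be told apart. The labels do not state the age or sex of the mice, or whether replicates were separate animals or cultures.

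The core particle of the proteasome is a barrel of stacked rings. Outer alpha rings gate the entrance and inner beta rings hold the catalytic sites, which are Psmb5 (chymotrypsin-like), Psmb6 (caspase-like) and Psmb7 (trypsin-like). In immune cells and under interferon gamma these are replaced in newly made particles by Psmb8, Psmb9 and Psmb10, which changes the peptides made for presentation by MHC class I molecules. A regulatory particle with a ring of ATPases and a lid binds the barrel, removes the ubiquitin chain and feeds the protein in, and other activators open the gate without ubiquitin.

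Start regions of the genes that the results turn on are shown first, read from RefSeq in build GRCm38.p6, each with 250 bases before and 50 after a listed start, on the strand of the gene. They are the starts of the 2 genes with the largest responses to R848, of the 3 immunoproteasome subunits, of Psmb5, the catalytic subunit that Psmb8 replaces, and of Psme1, an activator subunit. Capitals mark a match to 1 of 6 short patterns that were searched on both strands.
Psma6, first start (chr12:55383972-55384271, + strand): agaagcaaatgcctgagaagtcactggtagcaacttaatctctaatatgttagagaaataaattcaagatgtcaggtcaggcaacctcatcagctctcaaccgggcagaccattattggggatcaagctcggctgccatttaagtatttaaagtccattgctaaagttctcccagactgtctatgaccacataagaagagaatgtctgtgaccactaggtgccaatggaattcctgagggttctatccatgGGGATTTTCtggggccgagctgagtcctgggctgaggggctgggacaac
Psma6, second start (chr12:55398575-55398874, + strand): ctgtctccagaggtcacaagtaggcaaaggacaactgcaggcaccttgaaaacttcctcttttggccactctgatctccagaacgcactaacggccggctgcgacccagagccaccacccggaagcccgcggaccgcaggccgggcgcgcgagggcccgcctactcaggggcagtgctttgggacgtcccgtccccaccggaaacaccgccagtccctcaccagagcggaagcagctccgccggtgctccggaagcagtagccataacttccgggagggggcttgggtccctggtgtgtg
Psmd10 (chrX:140956662-140956961, - strand): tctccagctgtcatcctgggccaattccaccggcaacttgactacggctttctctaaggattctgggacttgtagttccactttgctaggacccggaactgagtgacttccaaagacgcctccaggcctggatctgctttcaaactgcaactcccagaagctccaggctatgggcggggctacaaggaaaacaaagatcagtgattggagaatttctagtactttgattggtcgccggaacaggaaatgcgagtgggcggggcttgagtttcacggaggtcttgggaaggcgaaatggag
Psmb10 (chr8:105938343-105938642, - strand): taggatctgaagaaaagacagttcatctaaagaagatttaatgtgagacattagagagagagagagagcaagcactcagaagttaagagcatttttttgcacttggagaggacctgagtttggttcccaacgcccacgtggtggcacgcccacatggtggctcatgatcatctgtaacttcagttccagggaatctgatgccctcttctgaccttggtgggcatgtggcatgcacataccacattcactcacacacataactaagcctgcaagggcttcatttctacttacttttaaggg
Psmb9 (chr17:34187281-34187580, - strand): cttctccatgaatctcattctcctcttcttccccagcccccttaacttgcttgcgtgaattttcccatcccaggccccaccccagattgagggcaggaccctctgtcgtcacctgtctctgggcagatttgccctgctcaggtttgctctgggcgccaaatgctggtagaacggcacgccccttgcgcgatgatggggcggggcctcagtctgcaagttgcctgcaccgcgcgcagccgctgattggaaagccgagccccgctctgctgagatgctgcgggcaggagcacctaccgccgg
Psmb8 (chr17:34197945-34198244, + strand): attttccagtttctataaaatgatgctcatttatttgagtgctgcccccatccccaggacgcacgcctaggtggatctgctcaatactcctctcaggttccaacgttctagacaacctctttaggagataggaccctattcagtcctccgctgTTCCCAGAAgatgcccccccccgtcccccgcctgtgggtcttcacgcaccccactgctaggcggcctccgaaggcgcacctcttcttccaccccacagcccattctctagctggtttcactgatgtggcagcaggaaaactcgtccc
Psmb5 (chr14:54617946-54618245, - strand): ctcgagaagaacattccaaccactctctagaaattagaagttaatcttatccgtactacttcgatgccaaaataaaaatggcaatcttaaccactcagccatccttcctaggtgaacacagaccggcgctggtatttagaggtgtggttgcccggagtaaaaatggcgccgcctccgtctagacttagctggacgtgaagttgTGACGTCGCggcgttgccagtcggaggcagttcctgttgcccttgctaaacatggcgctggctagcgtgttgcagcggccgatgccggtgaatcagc
Psme1 (chr14:55578244-55578543, + strand): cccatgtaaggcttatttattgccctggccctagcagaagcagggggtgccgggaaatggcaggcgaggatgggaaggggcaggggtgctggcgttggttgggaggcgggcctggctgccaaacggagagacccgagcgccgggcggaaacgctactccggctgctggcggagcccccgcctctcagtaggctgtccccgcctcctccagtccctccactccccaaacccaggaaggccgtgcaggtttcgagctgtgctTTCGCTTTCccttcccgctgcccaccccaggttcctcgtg

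RefSeq windows were available for 35 of the members, with 38 windows in all, and 14 windows held at least 1 pattern. GGGANTTTC, a core of NF-kB sites, was found in 1 window, the first start of Psma6. There it begins at position 1 from the start, the base after the first transcribed one. It occurs in 1.11% of the 32851 windows of the table. The related core GGGANTTCC, present in 1.68% of all windows, was in 0 of the 38. TTCNNNGAA, a core of STAT sites held by 8.3% of all windows, was in 2, those of Psmb8, at position -97 from the start, and Psmd2. GAAANNGAA, a core of interferon-stimulated response elements held by 8.56% of all windows, was in 6, those of Pomp, Psmb3, Psmb4, Psmc2, Psmd4 and Psme1. The antioxidant response element core TGACNNNGC, held by 12.4% of all windows, was in 5, those of Psmb5 (position -47), Psmb6, Psmc6, Psmd12 and Psme4, and the longer TGACTCAGC (0.454% of all windows) was in 0. The patterns do not overlap one another in these windows. A match describes letters and is not a binding site, and no binding was measured.

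Values are RMA log2 intensities, on which a difference of 1 is a doubling, and levels of different genes are not compared because each row has its own probes. Over the genes tested, correlations within a group ran from 0.9909 to 0.9964 and those across groups from 0.9159 to 0.9945. Rasgef1b read 9.45, 8.60 and 9.36 on the knockout R848 arrays, 8.63, 7.88 and 8.72 on the knockout saline arrays, 9.84, 9.84 and 9.69 on the wild-type R848 arrays and 9.03, 9.19 and 9.14 on the wild-type saline arrays. Averaged over treatments it was lower in knockout by a log2 difference of -0.68 ± 0.15 (SE, limma adjusted p = 0.036), and signal remained. That call ended without knockout replicate 2 of either treatment (adjusted p = 0.0632 with saline and 0.0655 with R848) and without any 1 wild-type array (0.0502 to 0.098). The labels do not name the deleted exon, so the row checks them only in part. All 9 macrophage markers were tested, and their summed level was 93.27 to 93.74 on knockout R848 arrays, 95.70 to 96.60 on knockout saline arrays, 92.79 to 93.09 on wild-type R848 arrays and 94.61 to 95.56 on wild-type saline arrays. Markers of neutrophils, T cells, B cells, red cells and mast cells averaged 3.74 to 4.23 per array, below the dim limit of 4.31 to 4.35. Those of fibroblasts averaged 4.33 to 4.52, those of NK cells 4.94 to 5.09 and those of dendritic cells 5.23 to 5.54. Among the dendritic cell markers Cd209a averaged 8.85 over all arrays, far above the limit, and the others measured averaged 3.95 to 5.69. Single markers of these lists passed the filter and were called with R848. In knockout the dendritic cell marker Ccr7 (0.43, adjusted p = 0.0111) and the neutrophil marker S100a9 (0.32, 0.0119) were higher, and Cd209a of dendritic cells (-0.51, 0.00202) and Elane of neutrophils (-0.20, 0.033) were lower. The T cell marker Cd4 was lower in knockout (-0.28, 0.0348) and in wild type (-0.33, 0.0169). Of the macrophage markers, 2 were called higher and 5 lower in knockout, and 2 higher and 4 lower in wild type. The part of other cell types in the results was not tested, and fewer cells of a type and less RNA per cell cannot be told apart in these bulk samples.

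The first question was how proteasome genes answer to TLR7 stimulation in each genotype. R848 raised 16 of the 40 members in knockout cells and 16 in wild-type cells, and lowered 1, Psmb1, in each (limma, Benjamini-Hochberg adjusted over all tested genes, threshold 0.05). Of all tested genes 15.6% were higher and 26.0% lower with R848 in knockout, and 14.6% were higher and 23.6% lower in wild type. The median log2 difference of the members was 0.20 in knockout and 0.17 in wild type, where the medians over all genes were -0.03 and -0.02. Psma6 had the largest increase in both genotypes, followed by Psmd10 and then Psmb10.

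Called in both genotypes were 12 of the higher members: Psma3, Psma6, Psmb6, Psmb8, Psmb9, Psmb10, Psmc5, Psmd7, Psmd10, Psmd11, Psmd14 and Psme3. Psmb5, Psmb7, Psmc6 and Psmd6 were called in knockout alone and Psmb4, Psmc4, Psmd3 and Psme1 in wild type alone, and no test of the difference between the responses passed for any of these 8 (interaction, adjusted p between 0.974 and 0.996). Under median centring all 8 were called in the other genotype too, and under cyclic loess 6 of them were, all but Psmb7 and Psmc6. In 19 members no change was called in either genotype. The shares of all tested genes called in both genotypes, in a single one or in neither are not given here. These counts alone therefore do not set the members apart. Only Psma6, Psmb10 and Psmd10 reached a 1.5-fold increase, in both genotypes, against 7.15% of all genes in knockout and 6.70% in wild type. All 3 R848 arrays lay above all 3 saline arrays for 21 members in knockout and 23 in wild type, where 19.6% and 19.5% of all genes did so.

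The counts depend on how arrays are put on 1 scale. After centring each array on its median, the median of all genes was 0.12 in knockout and 0.11 in wild type. Of all called genes, 63.6% in knockout and 62.2% in wild type were then higher with R848, against 37.4% and 38.3% in the deposited scaling. The members' calls were 31 higher and 0 lower in knockout and 30 higher and 0 lower in wild type. The share of all tested genes called higher after centring is not given here, so these counts alone do not set the members apart. Set against the median of all genes, which centring cannot alter, the members' median was 0.23 higher in knockout and 0.19 higher in wild type, with 33 members above it in knockout and 32 in wild type. Under cyclic loess the members' median was 0.24 and 0.21 above that of all genes, with 34 and 33 members above it. The fall of Psmb1 was not called after centring (-0.09, adjusted p = 0.318 in knockout, and -0.12, adjusted p = 0.191 in wild type).

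**Figure D1:**
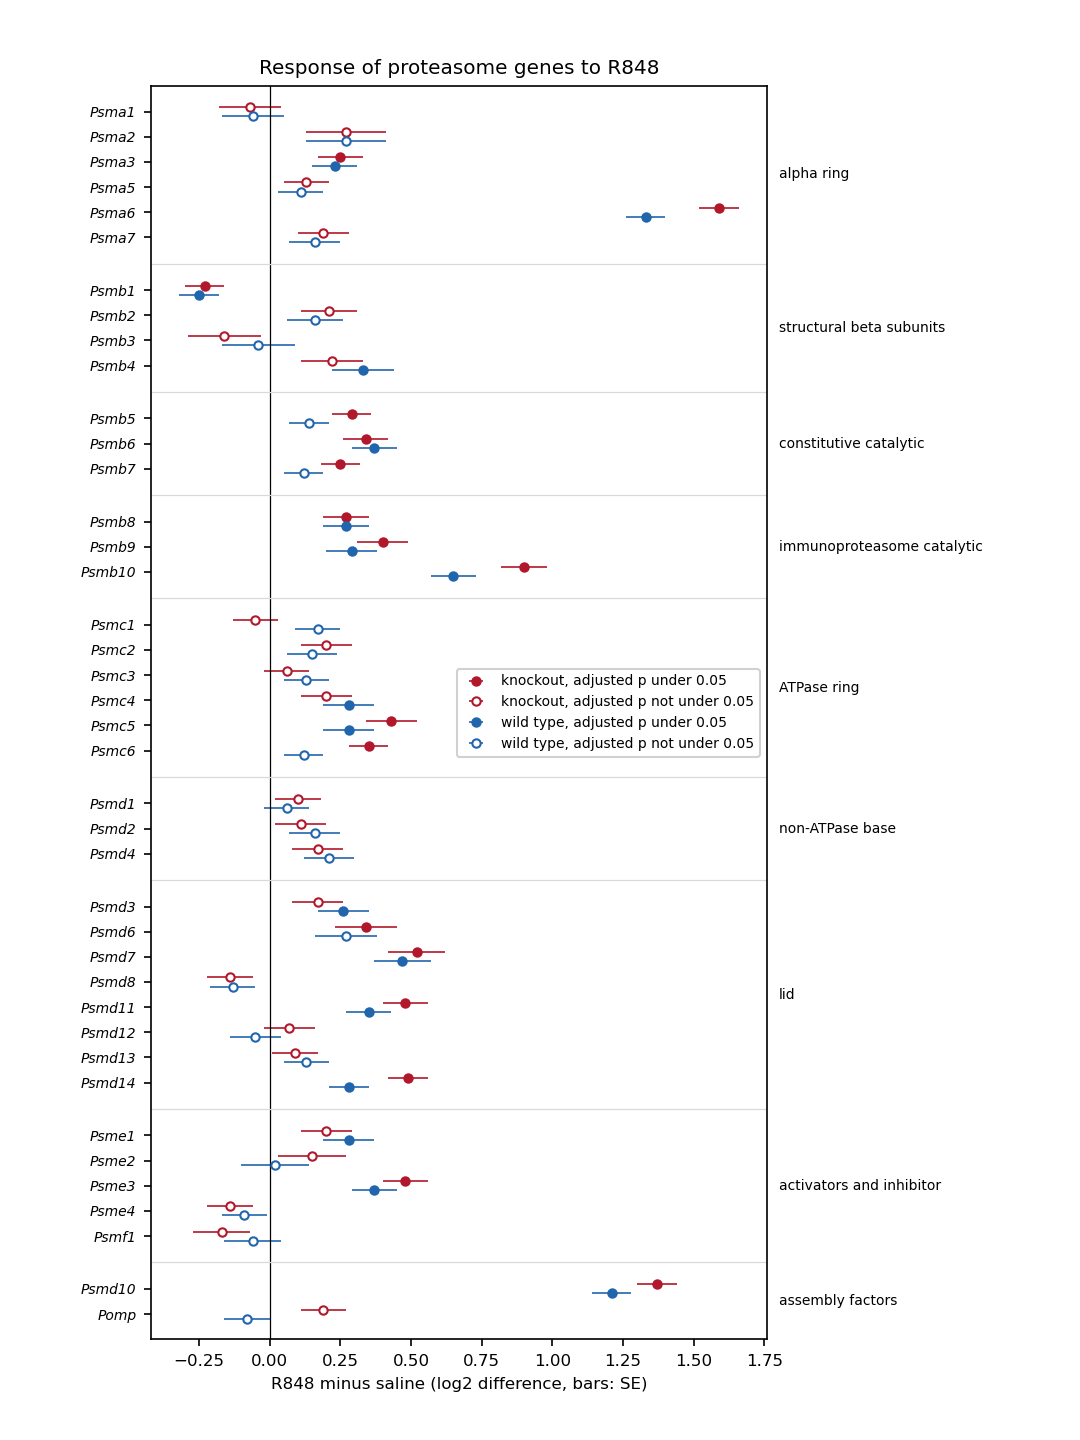
Log2 difference of R848 minus saline for the 40 measured proteasome genes, grouped by role, in knockout (red) and wild-type (blue) cells. Points are limma estimates with SE bars, filled where the adjusted p was under 0.05. Psma6 (1.59 in knockout and 1.33 in wild type) and Psmd10 (1.37 and 1.21) lie far to the right of the other members.

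In the alpha ring, the gate of the barrel, 2 of the 6 measured subunits rose in each genotype, beside 15.6% of all genes in knockout and 14.6% in wild type. Psma6 read 9.72, 9.65 and 9.68 on the knockout R848 arrays, against 8.16, 7.99 and 8.14 on the knockout saline arrays. In wild-type cells it read 9.67, 9.70 and 9.75 with R848, against 8.45, 8.38 and 8.29 with saline. The R848 arrays of both genotypes thus sat together, more than 1 unit above every saline array. The difference was 1.59 ± 0.07 (SE) in knockout, 3-fold with an adjusted p of 2.21e-10, and 1.33 ± 0.07 in wild type, 2.52-fold with an adjusted p of 1.71e-09. Psma3 rose by 0.25 in knockout and 0.23 in wild type (adjusted p = 0.0202 and 0.0331). Its wild-type call ended without saline replicate 1 (0.112) or 2 (0.0822) or R848 replicate 2 (0.118) or 3 (0.103), and its knockout call without saline replicate 1 (0.0838) or R848 replicate 3 (0.092). Psma1, Psma2, Psma5 and Psma7 were not called, with differences between -0.07 and 0.27 in knockout and between -0.06 and 0.27 in wild type. With the replicate number as a block, Psma2 was called in knockout (0.27, adjusted p = 0.0302) and wild type (0.27, 0.0342) and Psma7 in knockout (0.19, 0.0386). Psma5 averaged 4.69 over all arrays, close to the dim limit, where differences are compressed.

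Psmd10, also called gankyrin, is a chaperone that helps to assemble the base of the regulatory particle. It read 8.55, 8.60 and 8.73 on the knockout R848 arrays, against 7.29, 7.20 and 7.29 on the knockout saline arrays. Wild-type cells gave 8.54, 8.63 and 8.59 with R848, against 7.36, 7.31 and 7.45 with saline. Every R848 array was more than 1 unit above every saline array here too. The difference was 1.37 ± 0.07 (SE, adjusted p = 1.2e-09), or 2.58-fold, in knockout and 1.21 ± 0.07 (adjusted p = 4.99e-09), or 2.32-fold, in wild type. Pomp, the chaperone that places beta subunits and is essential for making the immunoproteasome, did not pass in either genotype. It read 9.30, 9.31 and 9.39 on knockout R848 arrays against 9.22, 9.09 and 9.12 on knockout saline arrays, a difference of 0.19 (adjusted p = 0.0758), and 9.41, 9.49 and 9.20 on wild-type R848 arrays against 9.46, 9.40 and 9.47 on wild-type saline arrays, a difference of -0.08 (adjusted p = 0.518). The groups separated in knockout and overlapped in wild type. The knockout difference was called under median centring (0.33, adjusted p = 0.00325), cyclic loess (0.24, 0.0239) and without wild-type R848 replicate 3 (0.0476).

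All 3 immunoproteasome catalytic subunits rose with R848 in both genotypes, beside 15.6% of all genes in knockout and 14.6% in wild type, and Psmb10 rose most. Psmb10, the inducible trypsin-like subunit, read 9.37, 9.41 and 9.36 on knockout R848 arrays, against 8.39, 8.61 and 8.43 on knockout saline arrays. The wild-type arrays read 9.29, 9.19 and 9.15 with R848, against 8.65, 8.44 and 8.59 with saline. The difference was 0.90 ± 0.08 (SE, adjusted p = 3.63e-07), or 1.87-fold, in knockout and 0.65 ± 0.08 (adjusted p = 1.25e-05), or 1.57-fold, in wild type. The groups were far apart in both genotypes, and the knockout R848 arrays lay above the wild-type R848 arrays.

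Psmb9, the inducible subunit in the place of Psmb6, read 7.68, 7.74 and 7.72 on knockout R848 arrays and 7.25, 7.40 and 7.30 on knockout saline arrays, a difference of 0.40 ± 0.09 (SE, adjusted p = 0.00154). On wild-type arrays it read 7.60, 7.34 and 7.50 with R848 and 7.05, 7.27 and 7.25 with saline, a difference of 0.29 ± 0.09 (adjusted p = 0.0138). Psmb8, the inducible chymotrypsin-like subunit, had the smallest increase of the 3. It read 9.01, 9.08 and 9.08 on knockout R848 arrays and 8.78, 8.78 and 8.80 on knockout saline arrays, and 9.0, 8.90 and 9.09 on wild-type R848 arrays and 8.55, 8.79 and 8.83 on wild-type saline arrays, a difference of 0.27 ± 0.08 in each genotype (adjusted p = 0.016 in both). No R848 array overlapped a saline array of its genotype for either gene. In wild type both calls rested on single arrays: that of Psmb9 ended without saline replicate 1 (0.22, adjusted p = 0.0705) or R848 replicate 1 (0.23, 0.0698), and that of Psmb8 without saline replicate 1 (0.19, 0.0852) or R848 replicate 3 (0.23, 0.0774).

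The constitutive catalytic subunits rose by less than Psmb10. Psmb6 read 9.40, 9.27 and 9.56 on knockout R848 arrays against 9.10, 9.01 and 9.09 on knockout saline arrays, a difference of 0.34 ± 0.08 (SE, adjusted p = 0.00228). On wild-type arrays it read 9.42, 9.45 and 9.49 with R848 against 9.05, 9.11 and 9.10 with saline, a difference of 0.37 ± 0.08 (adjusted p = 0.00151). Psmb6 was the constitutive catalytic subunit called in both genotypes. Psmb5 read 7.43, 7.26 and 7.41 on knockout R848 arrays against 7.01, 7.07 and 7.15 on knockout saline arrays (0.29 ± 0.07, adjusted p = 0.00499), and 7.61, 7.51 and 7.52 on wild-type R848 arrays against 7.43, 7.43 and 7.35 on wild-type saline arrays (0.14 ± 0.07, adjusted p = 0.149). Psmb7 read 8.67, 8.62 and 8.69 on knockout R848 arrays against 8.39, 8.33 and 8.51 on knockout saline arrays (0.25 ± 0.07, adjusted p = 0.00889), and 8.79, 8.76 and 8.80 on wild-type R848 arrays against 8.61, 8.70 and 8.67 on wild-type saline arrays (0.12 ± 0.07, adjusted p = 0.19). For both genes the R848 arrays were above the saline arrays in each genotype, although the wild-type differences did not pass.

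**Figure D2:**
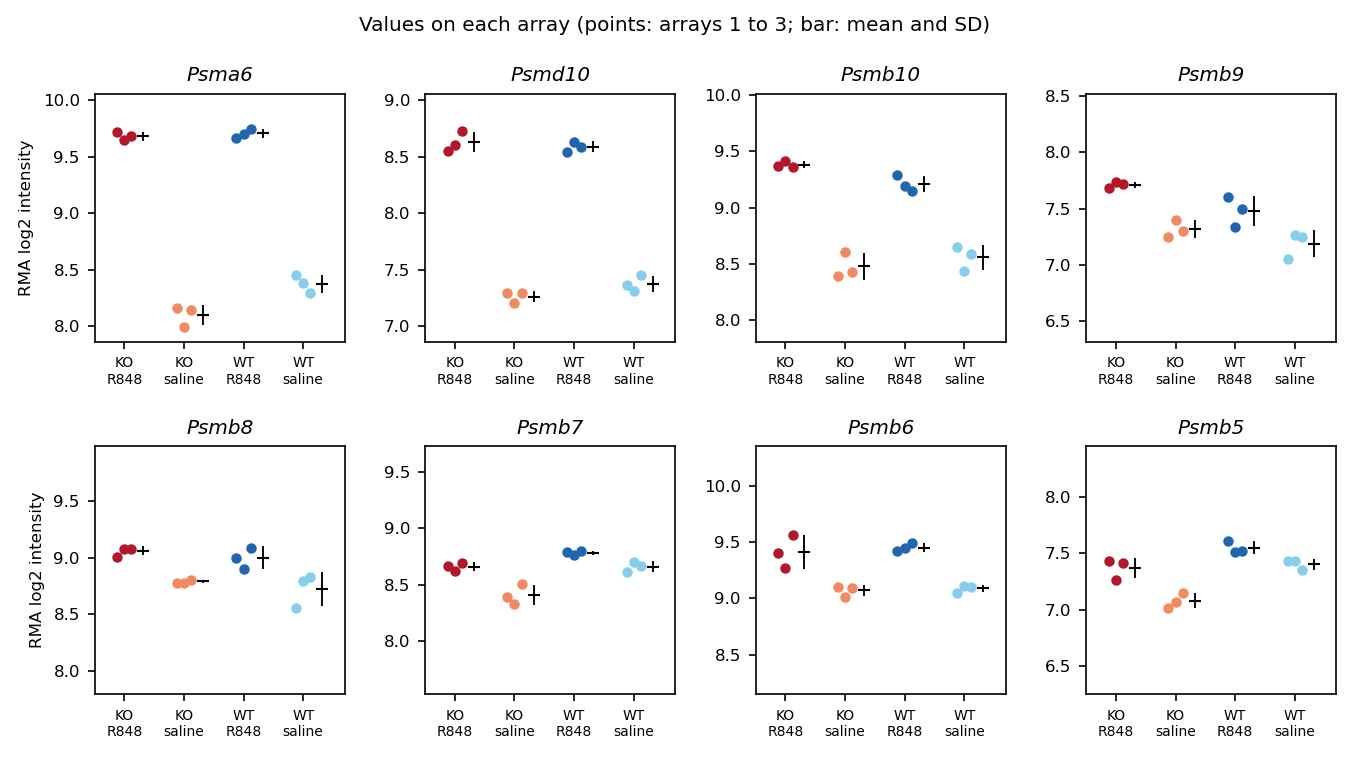
RMA log2 intensity of 8 proteasome genes on each of the 12 arrays, with knockout (KO) left of wild type (WT) and R848 left of saline; bars are means and SD of 3 arrays, and all panels span the same range of log2 units. The step between saline and R848 is widest for Psma6 and Psmd10, then Psmb10, and smaller for the other 5 genes.

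Whether an inducible subunit moved more than the one it replaces was examined within each array, as the inducible minus the constitutive value. The level of this difference has no meaning across probes, and only its change between groups is used. Psmb10 minus Psmb7 was 0.70, 0.79 and 0.67 on knockout R848 arrays, against 0.00, 0.28 and -0.08 on knockout saline arrays, and 0.50, 0.43 and 0.35 on wild-type R848 arrays, against 0.04, -0.26 and -0.08 on wild-type saline arrays. R848 minus saline was 0.65 ± 0.11 (SE) in knockout and 0.53 ± 0.11 in wild type for this pair, with no overlap of arrays in either. Each had p = 0.1 by exact permutation (two-sided), a value that cannot be lower with 3 arrays per group, and 0.24 after adjustment over the 12 pair comparisons made. Psmb8 minus Psmb5 changed by -0.02 ± 0.10 with R848 in knockout and 0.13 ± 0.10 in wild type, and Psmb9 minus Psmb6 by 0.05 ± 0.11 and -0.08 ± 0.11, with overlapping arrays in all 4 cases.

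**Figure D3:**
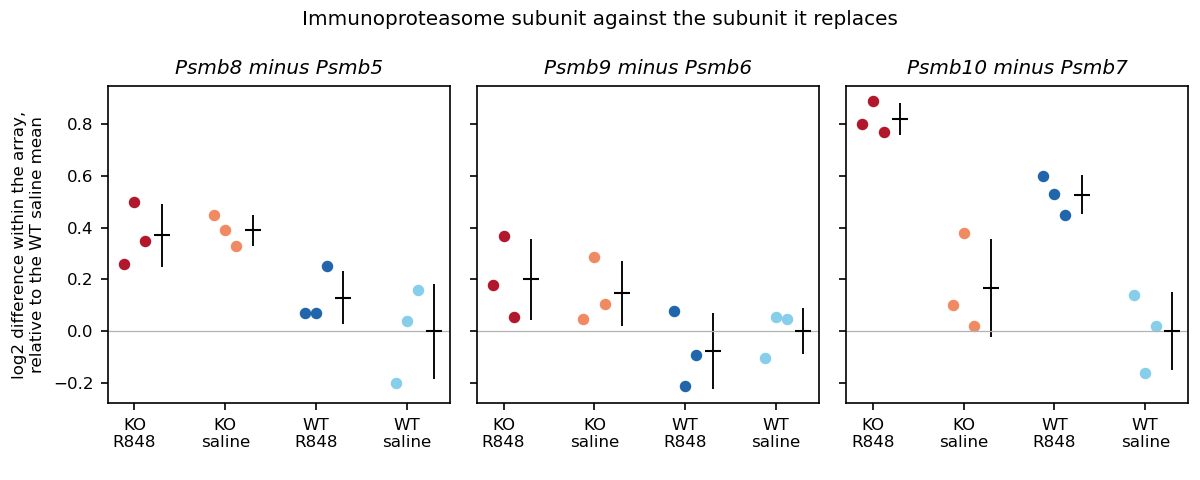
Inducible minus constitutive catalytic subunit on each array (log2), drawn relative to the wild-type saline mean, for the 3 exchangeable pairs; bars are means and SD of 3 arrays. The R848 arrays stand above the saline arrays of their genotype for Psmb10 minus Psmb7, by 0.65 in knockout and 0.53 in wild type, and the knockout arrays stand above the wild-type arrays of their treatment for Psmb8 minus Psmb5.

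Of the 4 structural beta subunits, which form the inner rings with the catalytic ones, Psmb1 was lower with R848 and Psmb4 was higher in wild type. Psmb1 read 8.56, 8.43 and 8.49 on knockout R848 arrays against 8.72, 8.63 and 8.82 on knockout saline arrays (-0.23 ± 0.07 SE, adjusted p = 0.02). On wild-type arrays it read 8.65, 8.55 and 8.58 with R848 against 8.83, 8.89 and 8.80 with saline (-0.25 ± 0.07, adjusted p = 0.0143). Psmb1 was the 1 member called lower with R848. Its knockout call ended under cyclic loess (adjusted p = 0.0544), with a fit of the 6 knockout arrays (0.0548) and without saline replicate 3 (0.0855) or R848 replicate 2 (0.073). Its wild-type call ended without replicate 2 of saline (0.0588) or R848 (0.0573). Psmb4 read 6.95, 7.22 and 7.27 on knockout R848 arrays against 6.74, 6.95 and 7.09 on knockout saline arrays (0.22, adjusted p = 0.142), and 7.15, 7.24 and 7.50 on wild-type R848 arrays against 7.02, 6.88 and 6.99 on wild-type saline arrays (0.33, adjusted p = 0.0308), a call that ended without saline replicate 2 (0.107) or 3 (0.0568) or R848 replicate 3 (0.158). Psmb2 and Psmb3 were not called in either genotype, and Psmb2 was called in knockout with the replicate block (0.21, adjusted p = 0.0498).

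In the regulatory particle, 2 of 6 ATPases, 4 of 8 lid subunits and 0 of 3 other base subunits rose in each genotype. Of all tested genes 15.6% rose in knockout and 14.6% in wild type, and groups this small do not set 1 part of the particle apart from another. Psmc5 rose in both, at 7.21, 7.00 and 7.27 on knockout R848 arrays against 6.80, 6.57 and 6.83 on knockout saline arrays, a difference of 0.43 ± 0.09 (SE, adjusted p = 0.00189). Its wild-type arrays read 7.35, 7.29 and 7.13 with R848 against 7.02, 6.92 and 7.00 with saline, a difference of 0.28 ± 0.09 (adjusted p = 0.0307), which ended without saline replicate 2 (0.102) or 3 (0.0577) or R848 replicate 1 (0.114) or 2 (0.0897). These ATPases unfold the substrate and open the gate. Psmc6 rose by 0.35 ± 0.07 in knockout (adjusted p = 0.000891) and differed by 0.12 in wild type (0.201), and Psmc4 differed by 0.20 in knockout (0.104) and rose by 0.28 in wild type (0.025), where the call ended without saline replicate 1 (0.0773) or 2 (0.0808) or R848 replicate 2 (0.103). Psmc1, Psmc2 and Psmc3 were not called, with differences between -0.05 and 0.20. The scaffold subunits Psmd1 and Psmd2 and the ubiquitin receptor Psmd4 were not called either, with differences between 0.10 and 0.17 in knockout and between 0.06 and 0.21 in wild type, where Psmd4 was called with the replicate block (0.21, adjusted p = 0.0439).

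Among lid subunits, Psmd7, Psmd11 and Psmd14 rose in both genotypes. Psmd7, the partner of the lid's deubiquitinating enzyme, read 9.26, 9.32 and 9.40 on knockout R848 arrays against 8.73, 8.95 and 8.73 on knockout saline arrays (0.52 ± 0.10 SE, adjusted p = 0.000421), and 9.41, 9.49 and 9.42 on wild-type R848 arrays against 8.77, 8.99 and 9.15 on wild-type saline arrays (0.47 ± 0.10, adjusted p = 0.0011). Psmd14, that enzyme, which removes the ubiquitin chain as the substrate enters, read 7.76, 7.66 and 7.66 on knockout R848 arrays against 7.18, 7.24 and 7.20 on knockout saline arrays (0.49 ± 0.07, adjusted p = 2.81e-05), and 7.82, 7.80 and 7.75 on wild-type R848 arrays against 7.50, 7.47 and 7.57 on wild-type saline arrays (0.28 ± 0.07, adjusted p = 0.00375). Psmd11, which holds lid and base together, read 9.47, 9.34 and 9.50 on knockout R848 arrays against 8.79, 9.10 and 8.97 on knockout saline arrays (0.48 ± 0.08, adjusted p = 0.000224), and 9.55, 9.50 and 9.59 on wild-type R848 arrays against 9.19, 9.19 and 9.20 on wild-type saline arrays (0.35 ± 0.08, adjusted p = 0.00303). For all 3 genes the R848 arrays lay above the saline arrays of their genotype. Psmd6 rose by 0.34 in knockout (adjusted p = 0.027) and differed by 0.27 in wild type (0.0733). The knockout call of Psmd6 ended without saline replicate 2 (0.0696) or 3 (0.0742) or R848 replicate 1 (0.111) or 3 (0.1). Psmd3 differed by 0.17 in knockout (0.145) and rose by 0.26 in wild type (0.0303), and this call ended without saline replicate 2 (0.0902) or 3 (0.0645) or R848 replicate 1 (0.137) or 2 (0.0527). Psmd8, Psmd12 and Psmd13 were not called, and Psmd8, at -0.14 in knockout and -0.13 in wild type, had the lowest difference of the lid in both.

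The activators split. Psme3, which forms a nuclear activator, read 8.40, 8.35 and 8.47 on knockout R848 arrays against 7.79, 8.09 and 7.90 on knockout saline arrays (0.48 ± 0.08 SE, adjusted p = 0.000181), and 8.46, 8.45 and 8.39 on wild-type R848 arrays against 8.02, 8.08 and 8.08 on wild-type saline arrays (0.37 ± 0.08, adjusted p = 0.00161). Psme1, which forms the interferon-inducible activator with Psme2, read 10.27, 10.26 and 10.33 on knockout R848 arrays against 9.95, 10.16 and 10.14 on knockout saline arrays (0.20 ± 0.09, adjusted p = 0.0771), and 10.28, 10.24 and 10.34 on wild-type R848 arrays against 9.83, 10.11 and 10.09 on wild-type saline arrays (0.28 ± 0.09, adjusted p = 0.0201). Psme1 was called in wild type, and that call ended without saline replicate 1 (0.19, adjusted p = 0.105) or R848 replicate 3 (0.25, 0.0736). Its knockout difference lay on the other side of the threshold under median centring (0.00429), cyclic loess (0.019), the replicate block (0.0482), an intensity trend (0.0496) and without wild-type saline replicate 1 (0.0432). In both genotypes its R848 arrays were above its saline arrays.

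Psme2, the partner of Psme1, read 6.02, 5.55 and 5.92 on knockout R848 arrays against 5.85, 5.46 and 5.73 on knockout saline arrays (0.15, 95% interval -0.12 to 0.42, adjusted p = 0.372). Its wild-type arrays read 6.11, 5.93 and 6.02 with R848 against 5.87, 6.12 and 6.01 with saline (0.02, interval -0.25 to 0.29, adjusted p = 0.923). These arrays overlapped, and Psme2 has a near-identical copy, Psme2b, whose signal its probes may share. A further row that carries Psme2 with another symbol was not used, so these values rest on 1 row. Psme4, the activator of nuclear and testis proteasomes, read 7.98, 8.10 and 7.88 on knockout R848 arrays against 8.15, 8.22 and 8.01 on knockout saline arrays (-0.14, adjusted p = 0.171), and 8.09, 8.14 and 8.16 on wild-type R848 arrays against 8.22, 8.23 and 8.20 on wild-type saline arrays (-0.09, adjusted p = 0.435). Psmf1, an inhibitor of the core particle in test tubes, read 7.51, 7.31 and 7.69 on knockout R848 arrays against 7.61, 7.67 and 7.74 on knockout saline arrays (-0.17, adjusted p = 0.187), and 7.56, 7.58 and 7.53 on wild-type R848 arrays against 7.48, 7.77 and 7.60 on wild-type saline arrays (-0.06, adjusted p = 0.689). Neither passed.

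The second question was whether loss of Rasgef1b changed these genes. No member passed limma's threshold in knockout against wild type with saline or with R848, where 0.334% and 0.135% of all tested genes did. Rasgef1b itself did not pass within a treatment either. It differed by -0.71 ± 0.21 (SE, limma adjusted p = 0.158) with saline and by -0.65 ± 0.21 (0.333) with R848. At an unadjusted p under 0.05 there were 11 members with saline (12.6% of all genes) and 4 with R848 (8.74%). The differences of the 40 members lay between -0.33 and 0.13 with saline and between -0.25 and 0.23 with R848, with SE of 0.07 to 0.14. Most leaned down in knockout. Negative were 32 of 40 with saline and 35 with R848, where 54.2% and 58.2% of all genes were, and 31 and 32 lay below the median of all genes. Under cyclic loess the negative members were 27 with saline and 23 with R848. The knockout arrays were separate from and below the wild-type arrays for 13 members with saline and 7 with R848, against 9.43% and 8.46% of all genes.

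**Figure D4:**
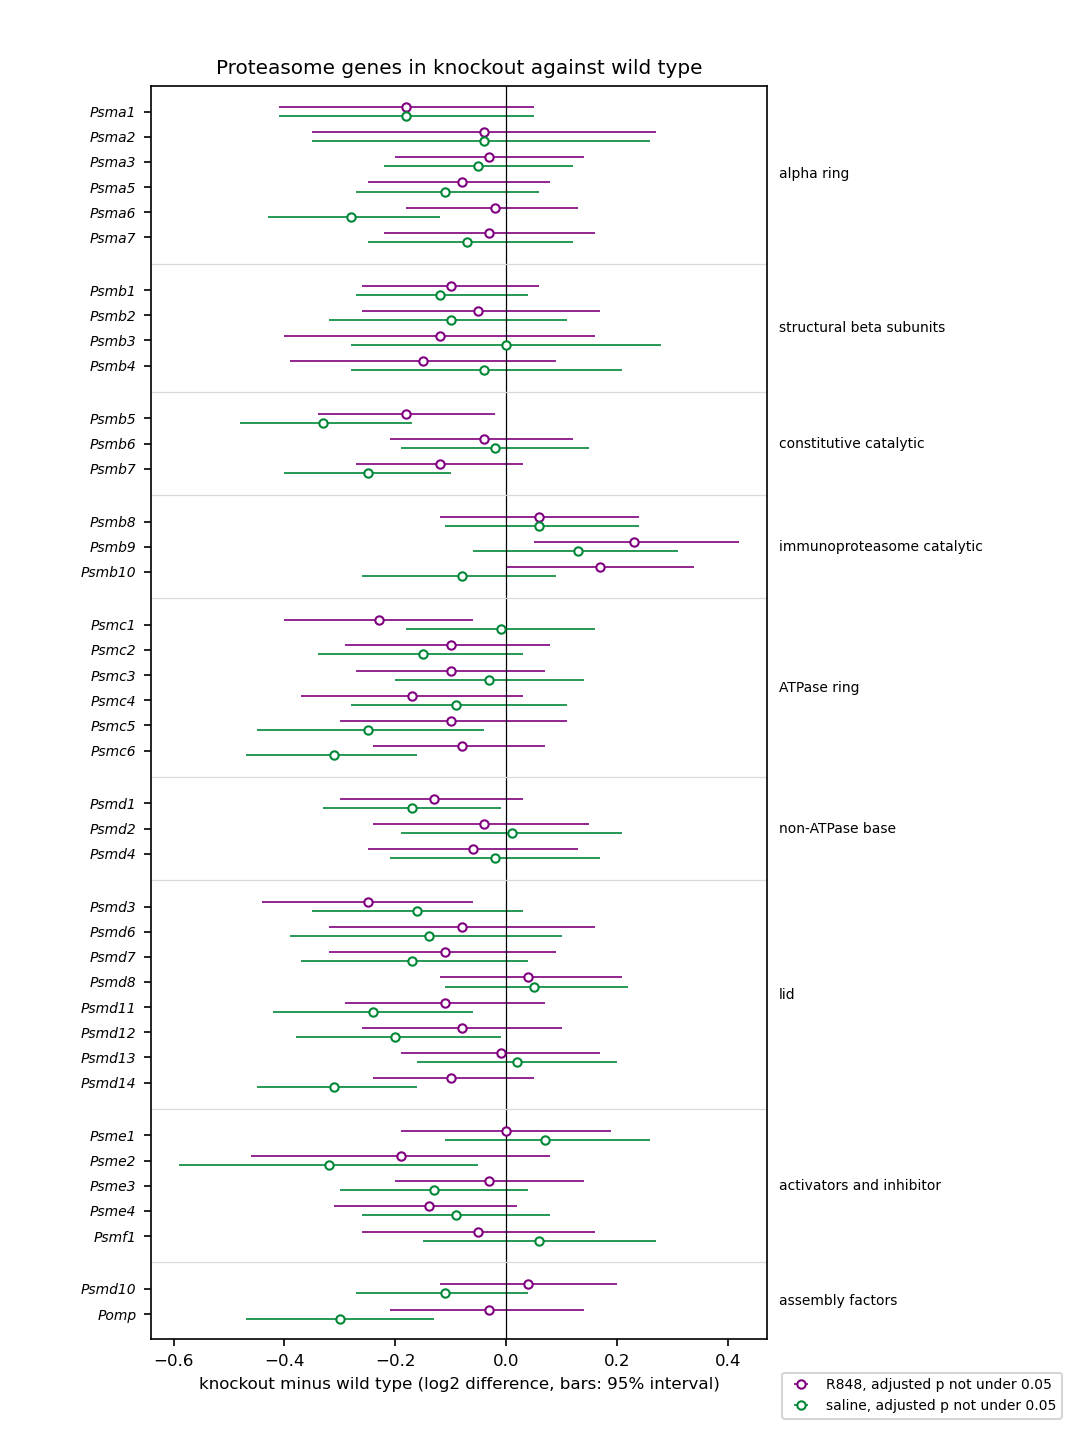
Log2 difference of knockout minus wild type for the 40 measured proteasome genes under R848 (purple) and saline (green), with 95% intervals of the limma fit. Most points lie left of 0, with medians of -0.08 under R848 and -0.10 under saline, the 3 immunoproteasome subunits lie right of 0 under R848, and no point passed the threshold.

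The 3 constitutive catalytic subunits had negative estimates in both treatments and the 3 inducible ones positive estimates, except Psmb10 with saline, and none passed. Psmb5 differed by -0.33 with saline (95% interval -0.48 to -0.17, adjusted p = 0.0896) and by -0.18 with R848 (-0.34 to -0.02, 0.497), and the knockout arrays given above lie below the wild-type arrays in both treatments. Psmb7 differed by -0.25 (-0.40 to -0.10, 0.134) and -0.12 (-0.27 to 0.03, 0.663), again without overlap, and Psmb6 by -0.02 and -0.04. Psmb8 differed by 0.06 in both treatments (intervals -0.11 to 0.24 with saline and -0.12 to 0.24 with R848), Psmb9 by 0.13 (-0.06 to 0.31) and 0.23 (0.05 to 0.42), and Psmb10 by -0.08 (-0.26 to 0.09) with saline and 0.17 with R848. Within arrays, Psmb8 minus Psmb5 was 1.58, 1.82 and 1.67 on knockout R848 arrays, against 1.39, 1.39 and 1.57 on wild-type R848 arrays, and 1.77, 1.71 and 1.65 on knockout saline arrays, against 1.12, 1.36 and 1.48 on wild-type saline arrays. Knockout minus wild type was 0.39 ± 0.10 (SE) with saline and 0.24 ± 0.10 with R848 for this pair, with no overlap of arrays. Psmb10 minus Psmb7 was higher in knockout by 0.29 ± 0.11 with R848, without overlap, and differed by 0.17 ± 0.11 with saline, where arrays overlapped. For the 3 comparisons without overlap the exact permutation gave p = 0.1 (two-sided), the smallest possible, and 0.24 after adjustment over the 12. Psmb9 minus Psmb6 differed by 0.15 ± 0.11 with saline and 0.28 ± 0.11 with R848, with overlap (permutation p = 0.3 and 0.2).

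Among the other members, Psmd14 (-0.31, interval -0.45 to -0.16, adjusted p = 0.0719), Psmc6 (-0.31, -0.47 to -0.16, 0.0901), Pomp (-0.30, -0.47 to -0.13, 0.134), Psme2 (-0.32, -0.59 to -0.05, 0.286) and Psma6 (-0.28, -0.43 to -0.12, 0.124) had the most negative differences with saline. For each of these 5 the knockout saline arrays lay below the wild-type saline arrays. With R848 the same genes differed by -0.10, -0.08, -0.03, -0.19 and -0.02, and their arrays overlapped. Psmd3 (-0.25, -0.44 to -0.06, 0.397) and Psmc1 (-0.23, -0.40 to -0.06, 0.394) had the most negative differences with R848.

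Averaged over treatments, 2 members were lower in knockout, Psmb5 by -0.25 ± 0.05 (SE, adjusted p = 0.0269) and Psmd14 by -0.20 ± 0.05 (adjusted p = 0.0441), where 1.01% of all genes were lower, and 14 members had an unadjusted p under 0.05 (16.1% of all genes). The call of Psmb5 ended under cyclic loess (adjusted p = 0.0652) and without knockout saline replicate 1 or 2, knockout R848 replicate 2, wild-type R848 replicate 1, 2 or 3 or wild-type saline replicate 2 (0.056 to 0.0675). That of Psmd14 ended under median centring (0.0854) and cyclic loess (0.127), and without any 1 array other than knockout R848 replicate 1 (0.0614 to 0.114). Macrophage markers were higher in knockout in the same averaged comparison by 0.01 to 0.18 with 0 of 9 called. The neutrophil marker S100a9 was called higher (0.30, adjusted p = 0.0375), at 5.06 to 5.28 on knockout R848 arrays against 4.52 to 4.91 on wild-type R848 arrays, and 4.85 to 4.88 on knockout saline arrays against 4.69 to 4.79 on wild-type saline arrays. The part of these markers in the results was not tested.

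The third question was whether the response to R848 differed between genotypes. The interaction passed in 0 of 40 members and in 0.0142% of all genes, and 5 members had an unadjusted p under 0.05 (4.93% of all genes): Pomp (0.27, interval 0.02 to 0.51), Psma6 (0.25, 0.03 to 0.47), Psmb10 (0.25, 0.01 to 0.50), Psmc6 (0.23, 0.01 to 0.45) and Psmd14 (0.21, 0.01 to 0.41). Their adjusted p lay between 0.965 and 0.974, so that a difference between the responses was not shown. In all 5 the knockout response was the larger one by these estimates. These 5 names were picked by their p after the values were seen. Over the 40 members the interaction lay between -0.22 and 0.27 with SE of 0.09 to 0.20, a spread within which differences of this size cannot be resolved with 3 arrays per group.

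Further genes of the pathway were taken from lists by function. Their counts stand beside 15.6% of all genes higher and 26.0% lower with R848 in knockout, and 14.6% and 23.6% in wild type. Of 10 tested regulators of proteasome genes, 7 rose and 1 fell in knockout, and 7 rose and 2 fell in wild type. Tnf, a cytokine, rose by 3.57 in knockout and 3.24 in wild type. Nlrc5, the activator of MHC class I genes, read 7.77, 7.91 and 7.77 on knockout R848 arrays against 6.40, 6.27 and 6.09 on knockout saline arrays, and 7.53, 7.23 and 7.38 on wild-type R848 arrays against 6.07, 6.39 and 6.04 on wild-type saline arrays (1.56 ± 0.11 in knockout and 1.21 ± 0.11 in wild type). Irf1, an interferon-induced activator of immunoproteasome genes, rose by 1.18 and 1.27 and Stat3 by 0.89 and 1.03. Nfe2l1, the factor that raises proteasome genes when proteasome activity is low, rose by 0.87 ± 0.11 in knockout and 0.79 ± 0.11 in wild type (adjusted p = 1.09e-05 and 3.23e-05), and its relative Nfe2l2 by 0.79 and 0.70. Irf2 fell in both genotypes (-0.63 and -0.78) and Irf8 in wild type (-0.40).

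Of 9 genes listed for peptide supply to MHC class I molecules downstream of the proteasome, 5 rose and 1, Pdia3, fell in knockout. In wild type 5 rose and 0 fell. The peptide transporter subunits Tap1 (0.96 in knockout and 0.87 in wild type) and Tap2 (0.79 and 0.60) and the loading factors Tapbpl (0.76 and 0.69) and Tapbp (0.34 and 0.41) led. Tap1 was also higher in knockout averaged over treatments by 0.30 ± 0.06 (SE, adjusted p = 0.0245). Of 12 tested genes for ubiquitin, shuttles and proteasome-bound enzymes, 6 rose and 2 fell in knockout, and 5 rose and 2 fell in wild type. Uchl5, a deubiquitinating enzyme of the regulatory particle, fell by 0.65 in knockout and by 0.70 in wild type (adjusted p = 0.00077 and 0.000447), and was lower in knockout averaged over treatments (-0.41 ± 0.09, adjusted p = 0.0367). The shuttle Ubqln2 fell as well (-0.55 and -0.38), and Txnl1 (0.43 and 0.33) and Nploc4 (0.32 and 0.40) rose. Of 7 tested further chaperones and subunits 0 rose, while Psmg2, a chaperone of the alpha ring, fell in both (-0.43 and -0.54) and its partner Psmg1 in wild type (-0.29, adjusted p = 0.0255).

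The genes next to the members on the chromosome, by RefSeq order, were read for Psma6, Psmd10, Psmb10, Psmb9 and Psmb8, a choice made after their values were seen. Next to Psma6 lies Nfkbia, the inhibitor of NF-kB, which rose by 3.23 ± 0.09 (SE) in knockout and 3.10 ± 0.09 in wild type, and on its other side Prorp differed by 0.20 in knockout (adjusted p = 0.0607) and rose by 0.26 in wild type (0.0155). Tap1 lies between Psmb9 and Psmb8, and Tap2 on the other side of Psmb8, and both rose, as given above. On the other side of Psmb9, H2-DMb1, a subunit of the MHC class II peptide exchange factor, was lower in knockout (-0.34, adjusted p = 0.0149) and differed by -0.11 in wild type (0.437), at group means of 4.11 to 4.52 around the dim limit. Beside Psmd10, Atg4a, a protease of autophagy, rose by 0.52 and 0.50 (adjusted p = 6.26e-05 and 0.000104), and Tex13b was not called. Of the neighbours of Psmb10, Ctrl rose by 0.38 in knockout (adjusted p = 0.00175) and differed by 0.03 in wild type, and Lcat was not called. Over all 78 tested neighbours of members, 15 rose in each genotype, which is 19.2%, beside the 15.6% and 14.6% of all genes given above, and 21 fell in knockout and 20 in wild type.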

How the data were processed

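RNA of 12 macrophage samples was hybridized to Affymetrix Mouse Gene 2.1 ST arrays. Per the submitters' processing notes, the authors made the deposited log2 values with Affymetrix Expression Console and RMA, which corrects background, equalizes the distributions of the arrays and summarizes probes; their versions and settings were not given in the sources used here. RMA values therefore do not show a change in total RNA, and differences of dim rows are compressed.

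From these values, 1 row per gene was kept (34472 rows, of which 23521 carry a single symbol, for 22180 genes). A gene was tested if it exceeded the 40th percentile of those rows (4.31 to 4.35) on at least 3 arrays, which left 14079. One model with 4 group means was fitted to all 12 arrays with limma 3.58.1 in R 4.3.3 (lmFit, eBayes), adjusted by Benjamini-Hochberg within each contrast over all genes tested at a threshold of 0.05. Adjusted p-values of genes are limma's throughout. Fits were tested on simulated data. Pair comparisons used exact permutation (scipy 1.17.1). The labels do not say whether replicates were separate cultures, so p-values reflect the spread among arrays, possibly a technical one, and the number of arrays limits the precision. No scan date or strip was used here.

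Groups and replicate numbers come from the sample titles. Residuals of same-numbered knockout arrays with R848 and saline correlated at 0.272, 0.172 and 0.275, each above 0.1. In the other comparisons at least 1 pair did not reach 0.1. Wild-type arrays with R848 and saline correlated at 0.252, -0.057 and 0.23. Across genotypes, same-numbered arrays correlated at 0.328, -0.004 and 0.104 with R848 and at 0.122, -0.12 and 0.143 with saline. Differently numbered arrays were not compared, so a pairing by number was not shown.

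The members and gene lists were chosen with earlier results of these data known. Values per array are given for the catalytic pairs, activators, Psmf1, Pomp and up to 6 further members per contrast with the largest called differences, and from each pathway list up to 4 called genes per contrast with the largest differences are named. RefSeq windows were matched by symbol.

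Alternatives were an intensity trend with robust spread, no or a stricter filter (60th percentile), median centring, the mean of all rows of a gene, a block for replicate number, cyclic loess, array weights, only the 6 arrays compared, a 1.5-fold minimum, and leaving out each array.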

Additional observations from a re-analysis of the deposited data

How the results depend on the processing

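Counts below are members called in either direction. The shares of all tested genes called under each alternative are not given here, so these counts alone do not set the members apart. For R848 against saline 17 members were called in each genotype. Under median centring there were 31 in knockout and 30 in wild type, with a 1.5-fold minimum 3 in each, and with 1 array left out 16 to 19 in knockout and 11 to 18 in wild type (the 11 came without wild-type saline replicate 2). The other alternatives gave 16 to 24 in knockout and 17 to 21 in wild type. For knockout against wild type averaged over treatments the count was 2, against 1 under median centring, 0 under cyclic loess, 4 with array weights, 0 with a 1.5-fold minimum and 0 to 2 with 1 array left out (0 or 1 without any 1 array other than knockout R848 replicate 1 or knockout saline replicate 3). In this comparison the stricter filter added Psmc6 (-0.20, adjusted p = 0.0486). Array weights added Psmb7 (-0.20, 0.0427) and Psmc6 (-0.21, 0.0377), and Psmb7 was also called without knockout saline replicate 3 (-0.21, 0.0482). Knockout against wild type within a treatment, and the interaction, gave 0 under all alternatives run. The 1.5-fold minimum left the calls of Psma6, Psmb10 and Psmd10 in each genotype. Apart from that minimum, of 39 called gene results, Rasgef1b included, 22 kept their call in every alternative, the other alternatives with all arrays ended 8 of 348 calls and those without 1 array 66 of 468, and 0 changed direction. Except for median centring and the 1.5-fold minimum, whose construction moves all genes or sets a minimum size, the cause of these changes was not tested.

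With the replicate number as a block, 21 members were called with R848 in knockout and 19 in wild type, and 2 averaged over treatments. The share of all tested genes called with this block is not given here either. Residuals of same-numbered knockout arrays correlated above 0.1, but a pairing by number was not shown, since differently numbered arrays were not compared. The block moved no count of calls by over 1.5 times. The members it added were Psma2, Psma7, Psmb2 and Psme1 in knockout and Psma2 and Psmd4 in wild type. Signal near background limits Psma5, which averaged 4.69 over all arrays. Psmb3 averaged 5.28, above the dim limit but below the array medians of the tested genes (5.87 to 6.09), and Psme2 averaged 5.88.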
